A study of Mus musculus with 9 samples.

Results

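Collagens are the triple-helical proteins of the extracellular matrix, and 44 genes named as collagen chains were examined among the 55487 genes measured in whole mouse retina at postnatal day 21. The members were the genes whose symbol is Col, a type number, the letter a and a chain number, and 43 of them passed the filter on low values that the test needed (at least 0.5 CPM, the reads of a gene scaled to the total of its library, in at least 3 of the 9 libraries). Only Col28a1 did not pass, with 0.237 to 0.594 CPM. By the kind of assembly the chains build, 11 members were fibrillar, 8 belonged to basement membranes and 25 to other classes. In Tet tcKO retinas, in which the genes of the 3 TET enzymes were targeted, the type IV genes Col4a5 and Col4a6, the vitreous fibril genes Col2a1, Col9a1, Col9a2, Col9a3 and Col11a1, and Col1a2, Col5a2, Col6a2 and Col16a1 were higher than in Cre-negative retinas, while Col4a3 was lower.

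Retinas of 3 genotypes of the strain C57 BL/6J were compared, with 3 libraries each. The Cre- animals carried no Cre transgene and are labelled wild type (WT). Triple heterozygotes (tHet) carried the Chx10::Cre-GFP transgene and 1 loxP-flanked allele each of Tet1, Tet2 and Tet3. In the triple conditional knockout (Tet tcKO), both alleles of Tet1, Tet2 and Tet3 were flanked by loxP sites, with the same transgene. The Chx10 promoter drives Cre in retinal progenitor cells, so cells of other origin in the dissected tissue keep their floxed alleles. The transgene is mosaic, and Cre-positive animals were in-crossed so that tHet and Tet tcKO animals held 2 copies. Cre- animals came from breeders of their own, so in both comparisons with Cre- the effect of genotype cannot be told apart from that of the breeding line or of the transgene. Each library held the retinas of 2 animals. The 3 comparisons share libraries in pairs, so they are not independent of each other.

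Each collagen molecule is a trimer of chains, and the chains are made by separate genes. Fibrillar collagens form the banded fibrils of connective tissue and, in the eye, the thin fibrils of the vitreous, in which type II collagen is the main component, type XI (with a type V chain) lies in the core and type IX, a collagen of the FACIT class that binds to fibril surfaces, coats the outside. Type IV collagen forms the network of basement membranes such as the inner limiting membrane, Bruch's membrane and vessel walls: the chains of Col4a1 and Col4a2 assemble with each other in nearly all basement membranes, those of Col4a3, Col4a4 and Col4a5 form another trimer known from kidney and eye, and those of Col4a5 and Col4a6 form a further one. The genes for these chains lie in head-to-head pairs.

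That pairing is visible in the sequence between the starts. Col4a4 (minus strand, GRCm38, chr1:82448423-82586849) and Col4a3 (plus strand, chr1:82586921-82722059) start 71 bases apart, Col4a1 and Col4a2 on chromosome 8 start head to head with an overlap of 22 bases, and Col4a6 (chrX:141165403-141474076) and Col4a5 (chrX:141475385-141689234) are separated by 1308 bases. The following stretches, from the RefSeq promoter table for GRCm38.p6, are shown because the Col4a3 and Col4a4 pair and the Col4a5 and Col4a6 pair differed in opposite directions, because Col9a1 had the highest level of any collagen per length, and because Col1a2 was called and its partner Col1a1 was not. Each stretch lies before a RefSeq start of its gene, runs 5′ to 3′ on the strand of the gene, and was cut back to the bases that no exon of GENCODE release M21 covers, so that the Col1a2 stretch ends 125 bases, the Col4a5 stretch 34 bases and the downstream Col9a1 stretch 16 bases before the RefSeq start. The Col1a2 stretch and the downstream Col9a1 stretch lie inside the gene as GENCODE draws it, between exons, since GENCODE starts Col1a2 at base 4504814 of chromosome 6 and Col9a1 at base 24177610 of chromosome 1. The capitals mark CG dinucleotides, the sites at which mammalian DNA is methylated and which TET enzymes demethylate. DNA methylation was not analysed here.
Col4a4, whose stretch is the whole interval to Col4a3 (chr1:82586850-82586920, minus strand, 71 bases): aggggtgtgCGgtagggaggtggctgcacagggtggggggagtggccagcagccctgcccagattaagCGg
Col4a6 (chrX:141474077-141474326, minus strand, 250 bases): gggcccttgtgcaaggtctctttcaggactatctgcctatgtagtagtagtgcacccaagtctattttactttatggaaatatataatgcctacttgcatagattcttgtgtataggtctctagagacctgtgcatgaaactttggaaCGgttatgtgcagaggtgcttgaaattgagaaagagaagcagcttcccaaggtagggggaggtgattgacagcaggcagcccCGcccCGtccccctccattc
Col4a5 (chrX:141475169-141475384, plus strand, 216 bases): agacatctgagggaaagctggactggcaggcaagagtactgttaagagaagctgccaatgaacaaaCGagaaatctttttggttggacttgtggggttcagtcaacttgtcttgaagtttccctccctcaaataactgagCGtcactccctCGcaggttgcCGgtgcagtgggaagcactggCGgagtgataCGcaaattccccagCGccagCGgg
Col9a1, upstream start (chr1:24177360-24177609, plus strand, 250 bases): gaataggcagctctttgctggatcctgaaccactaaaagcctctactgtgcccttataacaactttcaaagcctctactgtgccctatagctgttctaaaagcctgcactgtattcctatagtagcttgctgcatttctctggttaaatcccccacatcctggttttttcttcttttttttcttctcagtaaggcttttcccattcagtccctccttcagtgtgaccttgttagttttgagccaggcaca
Col9a1, downstream start (chr1:24194953-24195186, plus strand, 234 bases): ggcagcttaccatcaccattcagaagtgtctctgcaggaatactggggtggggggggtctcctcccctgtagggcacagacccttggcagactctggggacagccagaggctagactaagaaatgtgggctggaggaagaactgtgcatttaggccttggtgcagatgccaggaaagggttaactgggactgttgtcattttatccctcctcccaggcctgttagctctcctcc
Col1a2 (chr6:4505370-4505492, plus strand, 123 bases): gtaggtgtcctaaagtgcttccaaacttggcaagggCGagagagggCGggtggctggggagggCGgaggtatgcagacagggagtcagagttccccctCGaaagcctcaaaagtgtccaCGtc
The stretches differed in CG content. Both Col9a1 stretches held 0 CG dinucleotides, the Col4a6 stretch held 3, the Col4a4 stretch 2, the Col1a2 stretch 5 and the Col4a5 stretch 8.

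Promoter windows, which run from 250 bases before a RefSeq start into the first bases of the transcript, were present for 35 of the 44 members, in 38 windows. The members without a window were Col12a1, Col14a1, Col1a1, Col22a1, Col26a1, Col2a1, Col4a3, Col5a2 and Col9a3. The collagen windows held a median of 11.5 CG dinucleotides, against 7 over all 32851 windows of the table. The range among collagens ran from 0 (Col3a1, Col28a1 and the upstream start of Col9a1) to 37 (Col4a1). The letters GGGCGG, a form of the GC box that contains a CG, were found on either strand in 60.5% of collagen windows and 35.7% of all windows. TATAAA was found in 13.2% of collagen windows and 13.6% of all windows, and ACAAAG, the core of sites that SOX factors bind, in 13.2% and 18.7%. Of the 10 windows of collagens called higher in Tet tcKO than in Cre- (8 genes), 8 held GGGCGG and 0 held TATAAA or ACAAAG. A match describes these letters in this window and is not a mapped site.

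The 9 libraries held between 9627927 and 21108256 reads on genes, so that 1 read was worth 0.0474 to 0.104 CPM. A ribosomal RNA gene, CT010467.1, took 28.7% of the reads of Tet tcKO 3 and 3.72% of those of tHet 3, against at most 0.226% in the others, which lowers the CPM of all other genes in Tet tcKO 3. Tet3 stood at 213 to 268 CPM in Cre- libraries, 155 to 288 in tHet and 99.2 to 152 in Tet tcKO, and Tet1 and Tet2 overlapped between the genotypes. Counts over whole genes do not resolve the floxed exons. All 8 genes of a retina marker list were detected. In bulk tissue, fewer cells of a type and less RNA per cell cannot be told apart.

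In Tet tcKO against Cre-, 11 of the 43 tested collagens were called higher (25.6%) and 1 lower (2.33%). A gene was called when its log2 fold change was at least 1 in size and its adjusted p, from limma with Benjamini-Hochberg adjustment over 21330 genes, was under 0.01. Over all genes tested the same rule called 2.03% higher and 1.57% lower. Against tHet, 6 collagens were called higher and 4 lower in Tet tcKO, where the rule called 1.39% and 1.61% of all genes. Between tHet and Cre-, 2 collagens were called higher and 0 lower, where the rule called 0.0422% of all genes higher and 0.0% lower. Where 0 collagens were called lower, 0 were lower at an unadjusted p under 0.05 in limma, and edgeR and DESeq2 on recovered reads also called 0 lower. Over all genes tested in that comparison, 206 were lower at an unadjusted p under 0.05, and edgeR called 0 and DESeq2 4 genes lower. The median log2 fold change of the 43 collagens was 0.21 in Tet tcKO against Cre-, −0.20 against tHet and 0.48 in tHet against Cre-, beside medians of 0.00, −0.06 and 0.06 over all genes tested. With TMM scaling the split of higher and lower collagens was 11 and 3 against Cre- and 6 and 2 against tHet, and with CT010467.1 left out of the totals, which moved the median of all genes in Tet tcKO against Cre- to 0.14, it was 12 and 1, and 8 and 3. Without Tet tcKO 3 the calls were 8 higher and 0 lower against Cre-, 2 higher and 1 lower against tHet, and 0 between tHet and Cre-. The calls against tHet also moved to 3 higher and 2 lower without tHet 1, and to 1 higher and 3 lower without Tet tcKO 1.

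**Figure D1:**
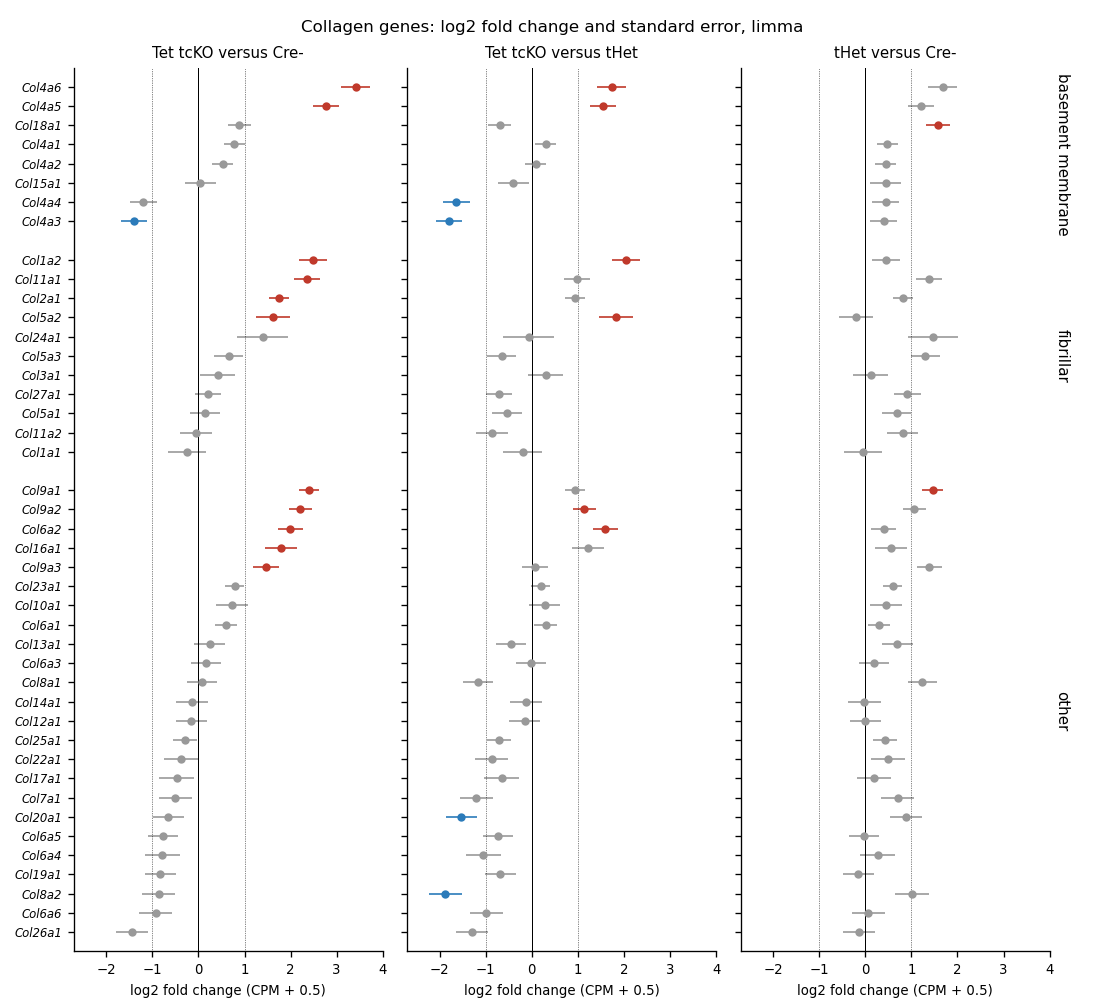
Points are log2 fold changes on the CPM + 0.5 scale with bars of 1 standard error (limma, 3 libraries a genotype) for the 43 tested collagens in each comparison, red where called higher and blue where called lower; dotted lines mark a log2 fold change of 1 in either direction. Col4a5 and Col4a6 lie far to the right, and Col4a3 and Col4a4 to the left, in both comparisons of Tet tcKO.

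The type IV genes divided by pair. Col4a6 stood at 1.00, 2.35 and 2.63 CPM in the Cre- libraries, at 5.54, 7.17 and 9.001 CPM in tHet and at 28.0, 26.8 and 20.2 in Tet tcKO. Its neighbour Col4a5, the chain that can join either of the minor type IV trimers, had 3.83, 6.55 and 9.65 CPM in Cre- libraries, 13.0, 15.6 and 17.1 in tHet and 49.3, 48.6 and 39.0 in Tet tcKO. For both genes the 3 genotypes did not overlap, with Cre- lowest, tHet between and Tet tcKO highest. Col4a6 was 10.6-fold higher in Tet tcKO than in Cre- on the CPM + 0.5 scale (log2 fold change 3.41, SE 0.32, limma adjusted p = 7.57e-07), the largest difference among the collagens in that comparison. Against tHet it was higher by 1.73 (SE 0.32, limma adjusted p = 0.00164). Col4a5 rose by 2.76 on the log2 scale against Cre- (SE 0.28, limma adjusted p = 2.03e-06) and by 1.55 against tHet (SE 0.28, limma adjusted p = 0.00139). In tHet against Cre-, Col4a6 differed by 1.68 (limma adjusted p = 0.0411) and Col4a5 by 1.21 (limma adjusted p = 0.179), and neither was called by limma. DESeq2 (adjusted p = 3.09e-05) and the fit with a replicate block (adjusted p = 0.00147) called Col4a6 there. Against tHet both calls were lost when 1 library was left out: the adjusted p of Col4a5 was 0.0123 without tHet 1, 0.0168 without Tet tcKO 1 and 0.0137 without Tet tcKO 3, and that of Col4a6 was 0.0164, 0.0207 and 0.0133. The calls against Cre- held in all 20 alternative settings.

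Col4a3 and Col4a4, the partners of Col4a5 in the trimer known from kidney and eye, went the other way. Col4a3 had 14.0, 14.5 and 11.6 CPM in Cre- libraries, 19.7, 21.1 and 13.3 in tHet and 5.88, 5.40 and 3.25 in Tet tcKO. Its neighbour Col4a4 had 10.8, 10.9 and 14.4 CPM in Cre- libraries, 18.7, 17.2 and 13.6 in tHet and 5.76, 6.92 and 2.95 in Tet tcKO. Every Tet tcKO library lay below every library of both other genotypes for each gene, and Cre- and tHet overlapped. Col4a3 fell by 1.41 on the log2 scale against Cre- (SE 0.28, limma adjusted p = 0.00304) and by 1.80 against tHet (SE 0.28, limma adjusted p = 0.000375). The call against tHet held in all 20 alternatives, while that against Cre- was lost without Cre- 2, Cre- 3 or Tet tcKO 3, at adjusted p of 0.0113, 0.0112 and 0.0184. Col4a4 fell by 1.64 against tHet (SE 0.30, limma adjusted p = 0.00149), a call lost without tHet 1 (adjusted p = 0.0143) or Tet tcKO 3 (adjusted p = 0.0107). Against Cre- its log2 fold change was −1.19 with an adjusted p of 0.0163, which did not pass, although among 7 of 20 alternatives TMM scaling (adjusted p = 0.00382), edgeR (adjusted p = 0.00409) and DESeq2 (adjusted p = 9.40e-06) called it, as did limma without tHet 3 (adjusted p = 0.0065) or Tet tcKO 2 (adjusted p = 0.00757). Exons of Col4a3 overlap those of C430014B12Rik on the opposite strand, and the strand setting of the counting is not given in the sources used here. Of 6 Müller glia markers, limma called Rlbp1, Glul and Abca8a lower in Tet tcKO against Cre- and against tHet. In each comparison 1 of the 6 had a positive log2 fold change, and against tHet edgeR called Glul and Rlbp1 alone. Limma called 6 of 7 rod markers lower in both comparisons. The part of glia and rods in the Col4a3 and Col4a4 differences was not tested.

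Col4a1 and Col4a2, which code for the chains of the common type IV network, differed less. Col4a1 had 18.0, 18.5 and 20.9 CPM in Cre- libraries, 26.4, 31.3 and 23.6 in tHet and 38.0, 36.4 and 26.5 in Tet tcKO. Against Cre- its log2 fold change in Tet tcKO was 0.78 (limma adjusted p = 0.0411). Col4a2 had 24.5, 22.2 and 26.4 CPM in Cre- libraries, 29.0, 34.7 and 36.6 in tHet and 39.8, 39.9 and 27.5 in Tet tcKO, with a log2 fold change of 0.53 (limma adjusted p = 0.220). In neither gene did Cre- overlap with the other genotypes, and neither was called. The starts of both genes share bases on opposite strands, and Col4a2 exons also overlap Gm15419.

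Ratios within a library do not depend on its total. On the scale of CPM per kilobase of exon (per kb), Col4a6 ran at 0.220 to 0.303 of Col4a5 in Cre- libraries, 0.358 to 0.445 in tHet and 0.436 to 0.478 in Tet tcKO. Col4a4 ran at 0.704 to 1.16 of Col4a3 in Cre- libraries, 0.768 to 0.963 in tHet and 0.852 to 1.20 in Tet tcKO, so these ranges overlapped. The ratio between the pairs set Tet tcKO apart from both other genotypes: Col4a5 was 0.407 to 1.23 times the level of Col4a3 in Cre- libraries, 0.984 to 1.91 times in tHet and 12.4 to 17.8 times in Tet tcKO. With 3 libraries against 3, an exact two-sided permutation test cannot go below p = 0.1, so ratios are given as ranges.

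**Figure D2:**
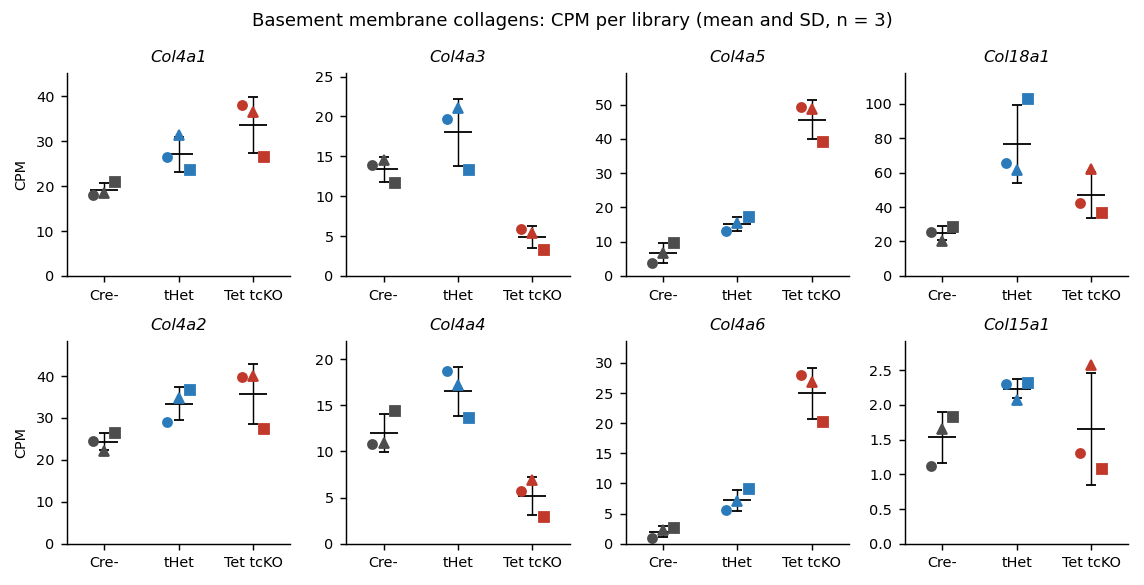
Points are the CPM of each basement membrane collagen in each library, with a circle, triangle and square for replicates 1, 2 and 3; horizontal lines are means and bars 1 SD of 3 libraries. The Tet tcKO libraries are the lowest for Col4a3 and Col4a4 and the highest for Col4a5 and Col4a6.

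Among the other basement membrane members, Col18a1 had its highest values in tHet. This gene, whose product carries the endostatin fragment at its end, stood at 25.4, 20.5 and 28.6 CPM in Cre- libraries, 65.6, 61.3 and 103 in tHet and 42.5, 62.2 and 36.5 in Tet tcKO. All Cre-positive libraries exceeded the Cre- libraries, and tHet and Tet tcKO overlapped. It rose by 1.58 in tHet against Cre- (SE 0.25, limma adjusted p = 0.0087), but the call was lost in 15 of 20 alternatives, among them TMM scaling (adjusted p = 0.131), edgeR (adjusted p = 0.115) and each omission of Cre- 2, Cre- 3, tHet 1, tHet 2, tHet 3, Tet tcKO 1 or Tet tcKO 3 (adjusted p from 0.011 to 0.0743). In Tet tcKO against Cre- the log2 fold change was 0.89 (limma adjusted p = 0.0360). Col15a1, its relative, lay between 1.08 and 2.57 CPM throughout, and was not called.

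For most chains of the vitreous fibril, levels were ordered from Cre- through tHet to Tet tcKO. Col9a1, the collagen of highest mean level per kb, had 34.1, 34.3 and 53.2 CPM in Cre- libraries, 94.5, 110 and 129 in tHet and 207, 218 and 212 in Tet tcKO. Col2a1, which codes for the main chain of the fibril, had 22.9, 26.8 and 29.8 CPM in Cre- libraries, 37.2, 49.0 and 56.7 in tHet and 99.0, 88.6 and 82.6 in Tet tcKO. For both genes no library of one genotype reached the range of another. Col11a1, a core chain, had 6.95, 6.49 and 11.2 CPM in Cre- libraries, 19.7, 21.0 and 24.6 in tHet and 38.9, 65.3 and 31.1 in Tet tcKO. Col9a2 had 4.65, 6.11 and 7.09 CPM in Cre- libraries, 13.1, 10.8 and 14.97 in tHet and 28.3, 30.7 and 27.9 in Tet tcKO. Again the genotypes did not overlap for either gene. Col9a3, for the remaining type IX chain, had 6.06, 3.44 and 6.82 CPM in Cre- libraries, 14.3, 13.2 and 16.3 in tHet and 13.8, 17.6 and 14.8 in Tet tcKO, so tHet and Tet tcKO overlapped above Cre-. Its exons overlap those of Tcfl5 on the opposite strand.

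Against Cre-, these 5 genes were called higher in Tet tcKO. The log2 fold change of Col9a1 was 2.41 (SE 0.22, limma adjusted p = 5.25e-07), and that of Col11a1 was 2.36 (SE 0.28, limma adjusted p = 1.46e-05). For Col9a2 it was 2.21 (SE 0.25, limma adjusted p = 8.53e-06) and for Col2a1 1.75 (SE 0.22, limma adjusted p = 2.36e-05). Col9a3 was higher by 1.46 (SE 0.28, limma adjusted p = 0.00185), a call lost without Cre- 2 (adjusted p = 0.0148) or Tet tcKO 3 (adjusted p = 0.0140). The other 4 calls held in all 20 alternatives. Against tHet, limma called Col9a2 alone of the 5, with 1.14 (SE 0.25, limma adjusted p = 0.00696), and its call was lost under 6 single omissions, those of Cre- 3, tHet 1, tHet 2 and each Tet tcKO library (adjusted p from 0.0121 to 0.0414). It was also lost without a filter on low values (limma adjusted p = 0.0136). Col9a1 (0.94, limma adjusted p = 0.0108), Col2a1 (0.93, limma adjusted p = 0.0115) and Col11a1 (0.97, limma adjusted p = 0.0434) stayed under the fold that the rule asks for. Col9a1 and Col2a1 passed without tHet 3, at adjusted p of 0.00428 and 0.00394, and also with CT010467.1 left out, at 0.00619 and 0.00336. Col11a1 passed in DESeq2, with a log2 fold change of 1.05 (adjusted p = 0.00256). In tHet against Cre-, Col9a1 was called (1.46, SE 0.22, limma adjusted p = 0.00509), although 11 of 20 alternatives lost it, with edgeR giving an adjusted p of 0.115 and the omission of Cre- 1, Cre- 2, tHet 2, Tet tcKO 1 or Tet tcKO 3 giving 0.0124 to 0.0737. Col11a1 (1.39) and Col9a3 (1.39) had an adjusted p of 0.0615 there, and Col9a2 (1.07) one of 0.183. DESeq2 called these 3 genes (adjusted p = 0.000956, 0.00597 and 0.009995), and the fit with a replicate block called Col11a1 (adjusted p = 0.00306) and Col9a3 (adjusted p = 0.00465).

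Col11a2, the gene for another chain of type XI, was not called in any comparison. It ranged from 3.59 to 9.59 CPM in Cre- libraries, 9.05 to 12.8 in tHet and 3.86 to 7.97 in Tet tcKO, and its log2 fold change in Tet tcKO against Cre- was −0.05 (limma adjusted p = 0.984). Per kb, Col11a2 was at 0.958 to 1.76 of Col11a1 in Cre- libraries, 0.681 to 1.21 in tHet and 0.184 to 0.369 in Tet tcKO. The type IX genes Col9a2 and Col9a1 kept a ratio of 0.161 to 0.292 over the 9 libraries, while Col9a3 was at 0.132 to 0.234 of Col9a1 in Cre- libraries, 0.158 to 0.199 in tHet and 0.0878 to 0.106 in Tet tcKO. Col9a1 per kb was 2.33 to 3.25 times Col2a1 in Cre- libraries, 4.08 to 4.64 times in tHet and 3.82 to 4.68 times in Tet tcKO. Summed over the 6 chains of types II, IX and XI, the fibril took 93.1 ± 21.5 CPM (SD, n = 3) in Cre- libraries, 219 ± 29.6 in tHet and 398 ± 27.3 in Tet tcKO. Those sums were 21.6%, 28.5% and 43.1% of all collagen CPM.

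**Figure D3:**
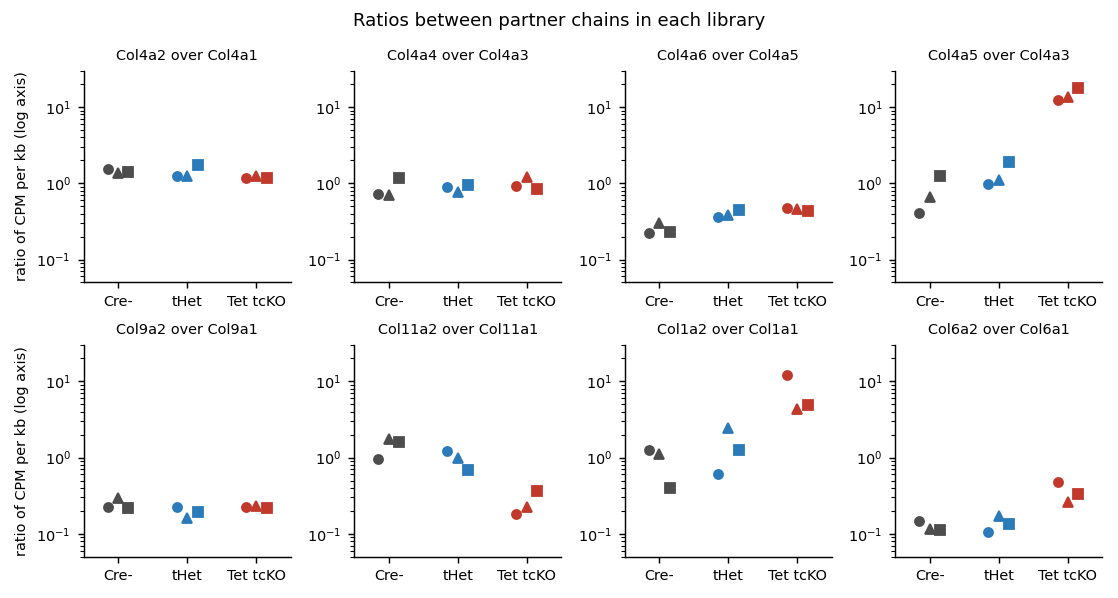
Points are ratios of CPM per kb between 2 chains in each library, on a log axis, with a circle, triangle and square for replicates 1, 2 and 3. The ratios of Col4a5 to Col4a3, Col1a2 to Col1a1 and Col6a2 to Col6a1 are higher in all Tet tcKO libraries than in the other 6, and that of Col11a2 to Col11a1 is lower, while Col9a2 to Col9a1 stays between 0.161 and 0.292.

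Genes of the ciliary epithelium, the layer at the retinal margin that secretes vitreous proteins, moved with the Cre-positive genotypes. The 6 markers of that layer summed to 8.59 to 14.4 CPM in Cre- libraries, 75.3 to 137 in tHet and 57.6 to 128 in Tet tcKO, and none of the 6 was below 3 reads in every library. Optc, which codes for the vitreous proteoglycan opticin, had 7.42, 1.21 and 5.74 CPM in Cre- libraries, 67.1, 42.1 and 98.9 in tHet and 32.9, 84.9 and 34.5 in Tet tcKO. Of the 5 markers tested, Optc, Fbn2 and Wfdc1 were called higher in Tet tcKO against Cre-, and Optc and Fbn2 in tHet against Cre-, where edgeR called 0 and DESeq2 4 of the 5. The part of this tissue in the collagen differences from Cre- was not tested. Between Tet tcKO and tHet, limma called 0 of the 5 markers, their sums overlapped, and 1 was lower and 0 were higher at an unadjusted p under 0.05. Over that same comparison Col4a5, Col4a6, Col1a2, Col5a2, Col6a2 and Col9a2 were called higher, and Col4a3, Col4a4, Col8a2 and Col20a1 lower. The part of the ciliary epithelium in these differences was not tested either.

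Type I collagen, the main fibril of connective tissue, is built from Col1a1 and Col1a2 chains, and their genes differed from each other. Col1a2 had 3.53, 3.18 and 3.24 CPM in Cre- libraries, 4.54, 4.26 and 5.35 in tHet and 33.7, 17.1 and 15.8 in Tet tcKO. Col1a1 had 1.47, 1.53 and 4.25 CPM in Cre- libraries, 3.89, 0.935 and 2.23 in tHet and 1.48, 2.11 and 1.69 in Tet tcKO. Every Tet tcKO library was the highest for Col1a2, whereas the genotypes overlapped for Col1a1. Col1a2 rose by 2.49 against Cre- (SE 0.31, limma adjusted p = 2.15e-05) and by 2.04 against tHet (SE 0.31, limma adjusted p = 0.000221), and both calls held in all 20 alternatives. The log2 fold change of Col1a1 was −0.25 against Cre- (limma adjusted p = 0.899). Per kb, Col1a2 was at 0.402 to 1.27 of Col1a1 in Cre- libraries, 0.616 to 2.41 in tHet and 4.29 to 12.0 in Tet tcKO.

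Col5a2, a chain that joins type I fibrils and also the vitreous fibril, was also highest in Tet tcKO. It had 1.24, 2.10 and 1.15 CPM in Cre- libraries, 1.58, 0.935 and 1.14 in tHet and 9.68, 4.81 and 3.55 in Tet tcKO, with Tet tcKO above both other genotypes. The log2 fold change was 1.63 against Cre- (SE 0.37, limma adjusted p = 0.00797) and 1.83 against tHet (SE 0.37, limma adjusted p = 0.00364). Both calls leaned on Tet tcKO 1: without it the adjusted p was 0.0862 against Cre- and 0.0469 against tHet. Against Cre- the call was also lost without Cre- 1, Cre- 3, Tet tcKO 2 or Tet tcKO 3 (0.0121 to 0.0538), and against tHet without tHet 2 (0.0175) or Tet tcKO 3 (0.011). Without a filter on low values limma lost both calls (adjusted p = 0.0445 against Cre- and 0.0256 against tHet). With a pseudocount of 0.1 CPM it lost the call against Cre- (adjusted p = 0.0118). Col5a1 and Col5a3, its partners, were not called, with log2 fold changes of 0.14 and 0.65 against Cre-. Col3a1, which shares fibrils with type I, lay between 0.720 and 3.09 CPM and was not called.

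Type VI collagen forms beaded microfibrils from the chains of Col6a1 and Col6a2 and 1 further chain. Col6a2 had 5.18, 6.68 and 7.49 CPM in Cre- libraries, 7.20, 9.87 and 8.86 in tHet and 35.0, 24.4 and 22.8 in Tet tcKO. Col6a1 had 18.6, 30.03 and 35.0 CPM in Cre- libraries, 35.4, 30.3 and 34.7 in tHet and 38.7, 49.9 and 36.1 in Tet tcKO. Tet tcKO libraries were the highest for both genes, by a wide gap for Col6a2 and a narrow one for Col6a1. Col6a2 rose by 1.99 against Cre- (SE 0.27, limma adjusted p = 5.26e-05) and by 1.59 against tHet (SE 0.27, limma adjusted p = 0.00063), the latter call being lost without Tet tcKO 1 (adjusted p = 0.0116). Col6a1 differed by 0.60 from Cre- (limma adjusted p = 0.189) and was not called. Col6a2 per kb was at 0.113 to 0.146 of Col6a1 in Cre- libraries, 0.107 to 0.171 in tHet and 0.257 to 0.476 in Tet tcKO. Among the genes for that further chain, Col6a3 lay at 0.534 to 1.45 CPM, Col6a4 at 0.831 to 4.26, Col6a5 at 0.0594 to 0.935 and Col6a6 at 0.482 to 2.36, and none was called.

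Fibroblasts, which make type I and type VI collagen in connective tissue, had low marker levels. The 10 markers of fibroblasts and sclera summed to 4.20 to 10.6 CPM in Cre- libraries, 7.69 to 10.2 in tHet and 6.44 to 11.6 in Tet tcKO. Twist2 was at 0 in every library, and limma called 0 of the 5 markers tested in any comparison (at an unadjusted p under 0.05, 1 was higher and 0 lower against Cre-, and 1 higher and 1 lower against tHet). Of the 5, Dcn had 0.235 to 0.540 CPM in Cre- libraries, 0.104 to 0.568 in tHet and 1.02 to 2.91 in Tet tcKO. In Tet tcKO, 2 of the 5 had positive and 3 negative log2 fold changes against each other genotype. Markers of pericytes and smooth muscle summed to 76.3 to 111, 99.6 to 135 and 102 to 197 CPM in the 3 genotypes. The highest sum was in Tet tcKO 1, the library that was also highest for Col1a2, Col5a2 and Col6a2, and Rgs5 alone made up 164 CPM of it. Limma called 0 of the 8 tested in any comparison. In Tet tcKO, 6 of the 8 had negative log2 fold changes against tHet and 5 had positive ones against Cre-, where 1 was higher at an unadjusted p under 0.05. Markers of retinal astrocytes summed to 44.9 to 65.8, 69.4 to 217 and 66.5 to 189 CPM, and all 4 were higher in Tet tcKO than in Cre- at an unadjusted p under 0.05, with 0 called. The part of fibroblasts, pericytes and astrocytes in the collagen differences was not tested. Lens markers summed to 3.89 to 11.5, 4.26 to 11.7 and 4.63 to 6.72 CPM, Lenep was at 0, and limma called 0 of the 4 tested, with 0 at an unadjusted p under 0.05 in any comparison. The 10 endothelial markers summed to 273 to 283, 223 to 270 and 211 to 334 CPM. Kdr and Flt1 made up most of each sum and moved in opposite directions. Kdr had 124 to 162 CPM in Cre- libraries and 164 to 244 in Tet tcKO, and Flt1 84.8 to 132 and 22.4 to 52.8. Of the 10 markers, 7 had positive log2 fold changes in Tet tcKO against each other genotype (medians 0.40 against Cre- and 0.39 against tHet), with 4 higher and 1 lower at an unadjusted p under 0.05, and Flt1 was the only one called, lower in both. The part of endothelium in the collagen differences was not tested.

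**Figure D4:**
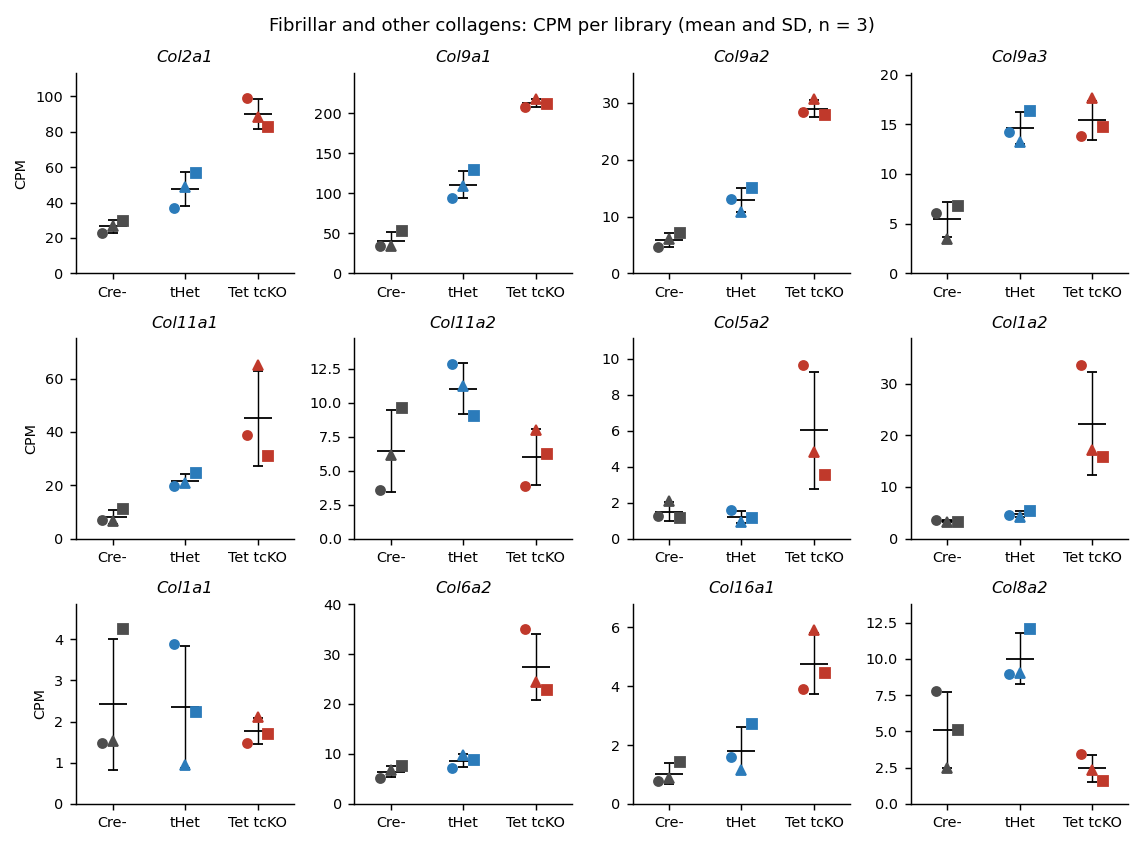
Points are the CPM of 12 fibrillar and other collagens in each library, with a circle, triangle and square for replicates 1, 2 and 3; horizontal lines are means and bars 1 SD of 3 libraries. Col2a1, Col9a1, Col9a2 and Col11a1 are lowest in Cre- and highest in Tet tcKO, while Col1a2, Col5a2 and Col6a2 stand high in Tet tcKO alone and Col8a2 stands high in tHet.

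Col16a1, a FACIT collagen, was the last of the genes called higher against Cre-. It had 0.765, 0.891 and 1.42 CPM in Cre- libraries, 1.58, 1.14 and 2.7004 in tHet and 3.92, 5.93 and 4.46 in Tet tcKO, with no overlap between Tet tcKO and the rest. The log2 fold change against Cre- was 1.79 (SE 0.35, limma adjusted p = 0.00212). It did not pass without Tet tcKO 2 (adjusted p = 0.0101), without Tet tcKO 3 (adjusted p = 0.0179) or without a filter on low values (adjusted p = 0.0169). Against tHet it was 1.23 (limma adjusted p = 0.0384), and it passed there without tHet 3 (adjusted p = 0.00925).

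A second set of collagens was lowest in Tet tcKO when tHet was the reference. Col8a2, which with Col8a1 makes the short-chain network of Descemet's membrane and of some vessel walls, had 7.77, 2.48 and 5.06 CPM in Cre- libraries, 8.93, 9.04 and 12.0 in tHet and 3.44, 2.31 and 1.57 in Tet tcKO. It fell by 1.87 against tHet (SE 0.36, limma adjusted p = 0.00262), a call lost under TMM scaling (adjusted p = 0.0112), in edgeR (adjusted p = 0.0127), without a filter on low values (adjusted p = 0.0135) and without Tet tcKO 3 (adjusted p = 0.0416). Against Cre- its values overlapped. Col8a1 had 26.5, 9.16 and 17.8 CPM in Cre- libraries, 34.0, 41.9 and 42.5 in tHet and 24.1, 19.2 and 11.1 in Tet tcKO. Its log2 fold change against tHet was −1.16 (limma adjusted p = 0.0355), which was not called, but passed without Cre- 1 (adjusted p = 0.0071) or Cre- 2 (adjusted p = 0.00572). Col8a2 per kb was at 0.473 to 0.512 of Col8a1 in Cre- libraries, 0.377 to 0.494 in tHet and 0.209 to 0.249 in Tet tcKO.

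Col20a1, a FACIT collagen, had 6.53, 16.8 and 11.3 CPM in Cre- libraries, 25.4, 22.1 and 14.7 in tHet and 4.63, 10.6 and 6.02 in Tet tcKO. It fell by 1.53 against tHet (SE 0.34, limma adjusted p = 0.00813), with all Tet tcKO libraries below all tHet libraries. That call was lost in 11 of 20 alternatives, among them TMM scaling (adjusted p = 0.0107), edgeR (adjusted p = 0.0134) and the omission of Cre- 3, tHet 1, tHet 2, Tet tcKO 1 or Tet tcKO 3 (adjusted p from 0.0109 to 0.0834). With CT010467.1 left out of the totals, Col20a1 had a log2 fold change of −1.40 (limma adjusted p = 0.0286) and was not called. Its exons overlap BX649560.1 on the same strand, so reads may be shared between them. Some markers of the pigment epithelium were lower in the same comparison: the 10 of them summed to 141 to 219 CPM in tHet and 48.7 to 67.6 in Tet tcKO. Of the 9 tested, limma called Dct, Rpe65, Ttr and Tyr lower, DESeq2 Rpe65, Ttr and Tyr, and edgeR Rpe65 alone. The log2 fold changes of 2 were positive. Against Cre-, 6 of the 9 had positive log2 fold changes in Tet tcKO, and Rpe65 was the only one called, lower. In Cre- the sum ran from 48.0 CPM, in Cre- 2, to 165 CPM. Cre- 2 was also the lowest Cre- library for Col8a1 and Col8a2, but the highest for Col20a1, at 16.8 CPM. The part of pigment epithelium in these collagen differences was not tested.

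**Figure D5:**
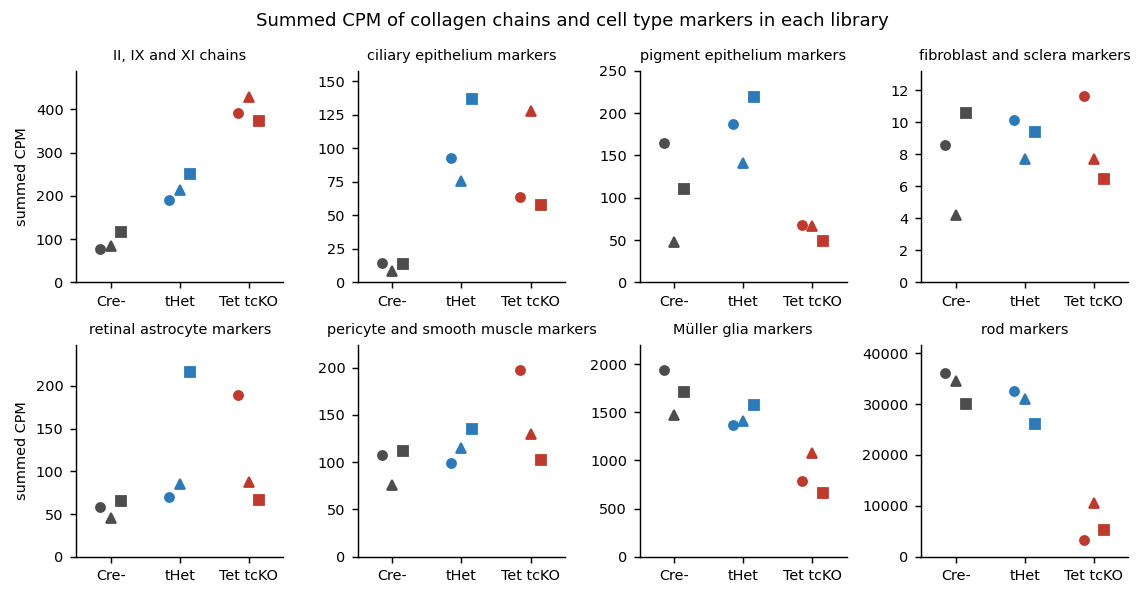
Points are summed CPM in each library of the type II, IX and XI chains and of 7 lists of cell type markers, with a circle, triangle and square for replicates 1, 2 and 3. The sums of ciliary epithelium markers are low in Cre- and overlap between tHet and Tet tcKO, those of pigment epithelium markers overlap between Cre- and tHet and lie below all tHet libraries in Tet tcKO, and those of rod and Müller glia markers are lowest in Tet tcKO.

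Among the highly expressed collagens without a call was Col23a1, a transmembrane collagen second in mean level per kb. It had 52.5, 57.9 and 66.0 CPM in Cre- libraries, 82.5, 86.3 and 97.97 in tHet and 112, 110 and 85.1 in Tet tcKO, with a log2 fold change of 0.79 against Cre- (SE 0.21, limma adjusted p = 0.0213). Col27a1, a fibrillar collagen of cartilage, had 7.30, 9.67 and 16.2 CPM in Cre- libraries, 19.4, 22.1 and 19.2 in tHet and 10.1, 15.7 and 11.4 in Tet tcKO. Its log2 fold change in Tet tcKO was 0.21 against Cre- and −0.70 against tHet (limma adjusted p = 0.179). Col24a1, another fibrillar member, was set by 1 library: Cre- 2 had 14.1 CPM against 1.06 and 1.42 CPM in the other Cre- libraries, while the tHet libraries had 11.4, 8.10 and 8.53 CPM and the Tet tcKO libraries 6.29, 12.8 and 8.31 CPM. Its log2 fold change against Cre- was 1.40 in Tet tcKO (limma adjusted p = 0.171) and 1.47 in tHet (limma adjusted p = 1.00). Without Cre- 2 the differences became 2.42 (limma adjusted p = 2.81e-05) and 2.49 (limma adjusted p = 0.000364).

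Col26a1, chosen for mention after its values were seen, was near the threshold in the other direction. It stood at 2.24 to 2.77 CPM in Cre- libraries, 1.28 to 3.46 in tHet and 0.475 to 0.725 in Tet tcKO, with a log2 fold change of −1.44 against Cre- (limma adjusted p = 0.0118). It was called lower against Cre- in 6 of 20 alternatives, among them TMM scaling (adjusted p = 0.0081), edgeR (adjusted p = 0.00883), DESeq2 (adjusted p = 0.000386) and limma without tHet 3 (adjusted p = 0.00369). Against tHet its log2 fold change was −1.30 (limma adjusted p = 0.0260), and 3 of 20 alternatives called it, DESeq2 (adjusted p = 0.00201), the fit with a replicate block (adjusted p = 0.00838) and limma without tHet 3 (adjusted p = 0.00428). Of the 9 tested members not described so far, Col10a1, Col12a1, Col13a1, Col14a1, Col17a1, Col19a1, Col22a1, Col25a1 and Col7a1, none was called in any comparison by limma as reported. Their log2 fold changes in Tet tcKO against Cre- ran from −0.83 (Col19a1) to 0.73 (Col10a1). Col25a1, at 11.1 to 30.7 CPM, and Col12a1, at 9.95 to 24.1 CPM, had the highest levels among them. Col7a1, the gene of the anchoring fibrils that fasten basement membranes, had 12.3 to 24.1 CPM in tHet and 3.86 to 12.6 in Tet tcKO (log2 fold change −1.21, limma adjusted p = 0.0485). It was called lower there in 3 of 20 alternatives, but not by edgeR or DESeq2.

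The genotype means were also ordered. Mean CPM rose from Cre- through tHet to Tet tcKO in 17 of 43 collagens (39.5%, against 19.6% of all genes tested), was highest in tHet in 20 (46.5%, against 40.0%), fell through the series in 5 (11.6%, against 15.2%) and was lowest in tHet in 1, Col5a2 (2.33%, against 25.3%). The first group held Col4a1, Col4a2, Col4a5, Col4a6, Col2a1, the type IX genes, Col11a1 and Col1a2. The second held Col4a3, Col4a4, Col8a1, Col8a2, Col18a1 and Col20a1.

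By class, fibrillar members summed to 76.0 ± 16.4 CPM (SD, n = 3) in Cre- libraries, 140 ± 8.79 in tHet and 208 ± 29.9 in Tet tcKO. In the basement membrane class the sums were 104 ± 10.5, 196 ± 19.7 and 199 ± 37.4 CPM, and in the other classes 252 ± 37.7, 431 ± 20.4 and 516 ± 49.997 CPM. All 44 genes together took 432 ± 62.1 CPM in Cre- libraries, 768 ± 47.8 in tHet and 923 ± 116 in Tet tcKO. Of the 11 fibrillar members, 4 were called higher and 0 lower in Tet tcKO against Cre-, of 8 basement membrane members 2 higher and 1 lower, and of 24 others tested 5 higher and 0 lower. Over all genes tested the rule called 2.03% higher and 1.57% lower in that comparison. For the 0 called lower by limma, 0 fibrillar and 5 other members were lower at an unadjusted p under 0.05, while edgeR and DESeq2 each called 0 fibrillar members and 1 other, Col26a1, lower. The median log2 fold changes of the 3 classes in that comparison were 0.65, 0.65 and −0.15.

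Genes that serve collagen were counted in the same way. Of 31 genes for the synthesis and processing of collagen chains, 29 were tested and 3 (10.3%) were called higher in Tet tcKO against Cre-, beside 2.03% of all genes. Serpinh1, which codes for the collagen chaperone HSP47, had 5.74 to 6.30 CPM in Cre- libraries, 7.27 to 11.0 in tHet and 13.7 to 16.9 in Tet tcKO, and was higher by 1.27 (SE 0.26, limma adjusted p = 0.00373). P3h3, a prolyl 3-hydroxylase family gene, was higher by 1.38 (SE 0.25, limma adjusted p = 0.00114), and Bmp1, the procollagen C-proteinase, by 1.48 (SE 0.28, limma adjusted p = 0.0016). None of the 31 was called lower or called in the other comparisons by limma. At an unadjusted p under 0.05, 4 were lower against Cre-, 4 higher and 4 lower against tHet, and 3 higher and 0 lower in tHet against Cre-. On recovered reads edgeR and DESeq2 each called 4 higher and 1 lower against Cre-, adding Fkbp10 and Pcolce2, and both called Bmp1 higher against tHet, where DESeq2 also called Pcolce2 lower.

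Laminins, nidogens and the large proteoglycans that share basement membranes with type IV collagen gave 0 calls by limma among 15 genes in each comparison, with 6 higher and 1 lower at an unadjusted p under 0.05 in Tet tcKO against Cre- and a median log2 fold change of 0.51. In that comparison edgeR called Nid1 higher, and DESeq2 called Hspg2, Lama4 and Nid1 higher and Lamc3 lower. Limma, edgeR and DESeq2 each called 0 of 9 collagen receptors and 0 of 3 collagenases and gelatinases tested in each comparison. In Tet tcKO against Cre-, 1 receptor was higher and 1 lower at an unadjusted p under 0.05, and the same was true of the collagenases. Of 16 tested genes for proteins that bind fibrils, Optc, Vcan and Fbln1 (18.8%) were called higher both in Tet tcKO and in tHet against Cre-, beside 2.03% and 0.0422% of all genes. In tHet against Cre- edgeR called 0 and DESeq2 4 of the 16. Vcan, the gene of the vitreous proteoglycan versican, had 8.01 to 10.1 CPM in Cre- libraries, 26.9 to 49.8 in tHet and 27.7 to 54.4 in Tet tcKO. Fbln1, which codes for fibulin-1, had 0.891 to 1.47, 7.58 to 16.6 and 5.36 to 18.1 CPM. None of these 16 genes was called between Tet tcKO and tHet by limma, edgeR or DESeq2, where 3 were higher and 2 lower at an unadjusted p under 0.05.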

How the data were processed

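RNA from whole P21 retinas was sequenced in 3 libraries per genotype, each from 2 animals. The deposited values are CPM per gene, which the authors computed from read counts on mm10. The submitters' processing notes name Trim Galore 0.6.7, STAR 2.7.0f, SAMtools 1.9, HTSeq 0.11.2 and edgeR 4.2.2. The annotation and the strand setting of the counting are not given in the sources used here. The authors' averages and comparison columns (log2 fold changes, log2 CPM, p-values, adjusted p-values and calls) were not used.

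CPM values were whole multiples of 1 read for 100% of values in every library (tolerance 0.02 reads), so reads could be recovered; edgeR called 14 and DESeq2 14 collagens in Tet tcKO against Cre- on them. Differences were tested with limma 3.58.1 (R 4.3.3, intensity trend) on log2(CPM + 0.5), over the 21330 genes that reached 0.5 CPM in 3 or more of the 9 libraries, with 1 shared estimate of the spread, and Benjamini-Hochberg adjustment. A fold change on this scale understates that of low genes. A call needed a log2 fold change of 1 or more in size, together with an adjusted p below 0.01. edgeR 4.0.16 and DESeq2 1.42.0 served as alternatives, beside other pseudocounts, filters and scalings, a replicate block, pairwise fits and leaving out each library. On data simulated for Tet tcKO against Cre- (20657 genes tested), limma recovered 192 of 200 genes changed by a log2 fold change of 2 (96.0%), with 0 false calls. The simulation gave all genes the same relative spread between libraries and changed no gene of low mean CPM. It held no single library rich in ribosomal RNA reads and no smaller fold change, so these rates may not hold for the measured libraries.

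Members called in any comparison, the 4 highest of each class and the 2 of each class with the largest fold change in each comparison were given with all values. Members, classes and lists were chosen with earlier results of these data known. Exon lengths and positions came from GENCODE release M21 (GRCm38), and 3 members (Col5a1, Col13a1 and Col25a1) were matched without their identifier version. P-values set a difference between genotypes against the spread between libraries, with 3 a genotype. Each library pooled 2 animals, so the spread between single animals was not measured.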

Additional observations from a re-analysis of the deposited data

How the results depend on the processing

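Of 460 log2 fold changes recomputed for 23 collagens in each comparison, 431 (Tet tcKO against Cre-), 406 (Tet tcKO against tHet) and 425 (tHet against Cre-) kept their direction and their side of the threshold, and 5, 9 and 1 changed sign. In Tet tcKO against Cre-, 10 to 14 collagens were called under the alternatives that kept all libraries of both genotypes, beside 12 as reported, and 8 to 14 when 1 library was left out. Against tHet the count was 6 without a filter on low values, beside 10 as reported, and 3 to 14 with 1 library left out. In tHet against Cre-, 2 were called as reported, 1 with a pseudocount of 0.1 CPM or a filter of 1 CPM, 0 without a filter, with TMM or upper-quartile scaling, with CT010467.1 left out, in edgeR or with only the 6 libraries compared, 6 in DESeq2, and 0 to 2 with 1 library left out. The deviations of libraries of the same number had correlations from −0.35 to 0.56 (mean 0.11 over 9 pairs). Those of libraries of different numbers ran from −0.57 to 0.50 (mean −0.05 over 18 pairs). The reported test did not pair libraries by number. With a replicate block 14, 13 and 5 collagens were called in the 3 comparisons. Over all genes tested, the block called 613 higher and 514 lower in Tet tcKO against Cre-, beside 434 and 334 without it. All sign changes were of differences that were not called. In Tet tcKO against tHet, Col24a1 (−0.07) became 0.0657 with CT010467.1 left out, 0.0172 in edgeR and 0.0190 in DESeq2, and ran from −0.33 to 0.15 with 1 library left out, Col4a2 (0.08) from −0.0167 to 0.26 and Col9a3 (0.07) from −0.0247 to 0.15. In Tet tcKO against Cre-, Col8a1 (0.08) became −0.0455 in edgeR and −0.0616 in DESeq2 and ran from −0.32 to 0.42, and Col27a1 (0.21) from −0.0357 to 0.51. In tHet against Cre-, Col5a2 (−0.20) ran from −0.35 to 0.00565. The cause was not tested. At 0.0474 to 0.104 CPM per read, members under 1 CPM rest on few reads.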
